A study of Sus scrofa with 24 samples.

Results

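The genes described here encode giant filament proteins of the sarcomere and the proteins that anchor them at the Z-disc and the M-band. Of 10 genes (NEB, TTN, MYBPC1, MYBPC2, MYOM1, ACTN2, ACTN3, MYOZ1, LDB3 and DES), 7 were measured on porcine arrays, through 10 of 23935 tested probe sets. A gene counted as measured when a probe set carried its symbol, and no other symbol, in the platform annotation. ACTN3, LDB3 and MYBPC2 matched no probe set and were not analysed here. Each gene is described by its brightest probe set. TTN and ACTN2 had a second probe set well above background, while the second probe set of DES had stage means of 7.01 to 22.4, under the background signal of 74.7 at every stage.

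Total RNA of 24 pigs was measured, 1 array per animal, on the Affymetrix Porcine Genome platform, and the values are scaled linear signal intensities. Stages labelled 94 dpc, 1 dpn, 28 dpn and 188 dpn, read here as days post conception and days postnatal, held 6 animals each. All 24 animals, fetal and postnatal, were offspring of German Landrace gilts given a high protein diet in gestation. No animal of another diet is analysed here, so no value below measures an effect of the diet. The offspring of 3 gilts were used per stage, the mother of each animal is not stated, and the p-values, which treat 6 animals as independent, are too small by an unknown amount.

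The sarcomere is the contractile unit of striated muscle. Thin filaments of actin are held in register at the Z-disc by α-actinin, thick filaments of myosin are cross-linked at the M-band, and titin runs between both lines as an elastic spring. Nebulin runs along the thin filament, myosin-binding protein C sits on the thick filament, and desmin ties neighbouring Z-discs to each other and to the cell membrane.

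The labels name liver as the tissue and the series title names muscle. Of 11 skeletal muscle markers other than the genes above, 8 were measured and none had a stage mean under background. Their summed signal was 168510 to 259750 at 94 dpc and 348306 to 548759 over the arrays of the later stages. Of 12 hepatocyte markers 11 were measured. Their sum ranged from 7973 to 58783 at 94 dpc, from 2817 to 31985 at 1 dpn and from 3178 to 7788 at 28 dpn. Among the 188 dpn arrays alone it ranged from 1344 to 224277. Animals 1 to 3 of 188 dpn had an ALB signal over 10000 (12421 to 56933), against 80.1 to 281 in animals 4 to 6. The hepatocyte sum of animal 3 of 188 dpn (36147) was under that of animals 1 and 2 of 94 dpc (42277 and 58783). Of the cardiac markers 4 of 7 were measured, with NPPA under background at every stage and a summed signal of 4451 to 9012 at 94 dpc and 347 to 1186 later. At 1 dpn the control transcript EF1A gave a 5′/3′ signal ratio of 0.0963 to 0.135 in animals 1 to 3 and of 0.670 to 0.703 in animals 4 to 6, a measure of how intact the RNA and its copies are. The ratio was 0.988 to 1.05 at 94 dpc and 0.512 to 0.696 at the 2 later stages. Results of the 7 genes are therefore also given without the 3 arrays of low 5′ signal and without the 3 arrays of high ALB where these change a call. For the lists of other genes further below, only part of such changes is given. In bulk tissue a change in the share of muscle cells and a change in transcript per cell cannot be told apart.

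From 94 dpc to 188 dpn, 5 of the 7 genes rose (NEB, MYOZ1, TTN, MYOM1 and DES), none fell, and MYBPC1 and ACTN2 did not pass the test in limma with Benjamini-Hochberg adjustment at 0.05. At an unadjusted p under 0.05 the count of lower genes was also 0. Over all probe sets, 39.9% were called in this comparison, 12.5% higher and 27.4% lower. The stages did not overlap for these same 5 genes, against 29.1% of all probe sets. The median difference of the 7 genes was 0.90 on the log2 scale, against -0.29 over all probe sets. Under quantile normalization 3 genes rose (NEB, TTN and MYOZ1) and ACTN2 fell.

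By the brightest probe set of each gene, the calls lay in the first 2 of the 3 intervals between neighbouring stages. The dimmer ACTN2 probe set was also called lower from 28 to 188 dpn (-0.62). That of TTN was called from 94 dpc to 1 dpn (1.57) and not from 1 to 28 dpn (-0.32). The interval from 94 dpc to 1 dpn, called the step at birth below, also holds the end of gestation, and no sample tells when within it a change took place. Between 94 dpc and 1 dpn, MYOZ1, NEB and ACTN2 rose and MYBPC1 fell, where 31.0% of all probe sets were called, 10.1% higher and 20.8% lower. Between 1 and 28 dpn, NEB, TTN, MYBPC1 and MYOM1 rose and none fell, also at an unadjusted p, where 20.7% of all probe sets were called, 11.6% higher and 9.10% lower. The stages did not overlap for 2 of the 7 genes in the step at birth (NEB and MYOZ1), against 13.7% of all probe sets, and for the 4 called genes in the later step, against 9.40%. Without the 3 arrays of low 5′ signal MYBPC1 was called in neither step. Between 28 and 188 dpn limma called 0 of 7 genes, where 14.6% of all probe sets were called, 4.12% higher and 10.5% lower. At an unadjusted p under 0.05, DES was higher and ACTN2 lower in that interval, and both pairs of stages did not overlap, against 12.2% of all probe sets. With the trend and robust options of limma, both were called. The median difference of the 7 genes was 0.26, 0.88 and 0.06 in the 3 intervals, against -0.15, 0.02 and -0.18 over all probe sets.

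Across wider intervals that share these arrays, NEB, TTN, MYOM1, ACTN2 and MYOZ1 were higher at 28 dpn than at 94 dpc and 0 were lower, also at an unadjusted p. There 27.8% of all probe sets were called, 10.4% higher and 17.5% lower, and the stages did not overlap for 5 of the genes, against 22.0% of all probe sets. After quantile normalization MYOM1 (0.41) and ACTN2 (-0.06) were not called there, and DES was called lower (-0.37). With centring DES was called higher there (0.59). At 188 dpn 6 genes were higher than at 1 dpn and ACTN2 was lower. Of all probe sets 34.9% were called there, 14.1% higher and 20.8% lower, and the stages did not overlap for 4 of the genes, against 16.7% of all probe sets. Without the newborn arrays of low 5′ signal 3 of the 6 were no longer called: MYBPC1 went from 1.45 to 0.43, MYOZ1 from 0.46 to 0.38 and DES from 0.44 to 0.22. Without the arrays of high ALB, MYBPC1 (1.17) and DES (0.46) were not called, and with centring ACTN2 (-0.19) was not.

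**Figure D1:**
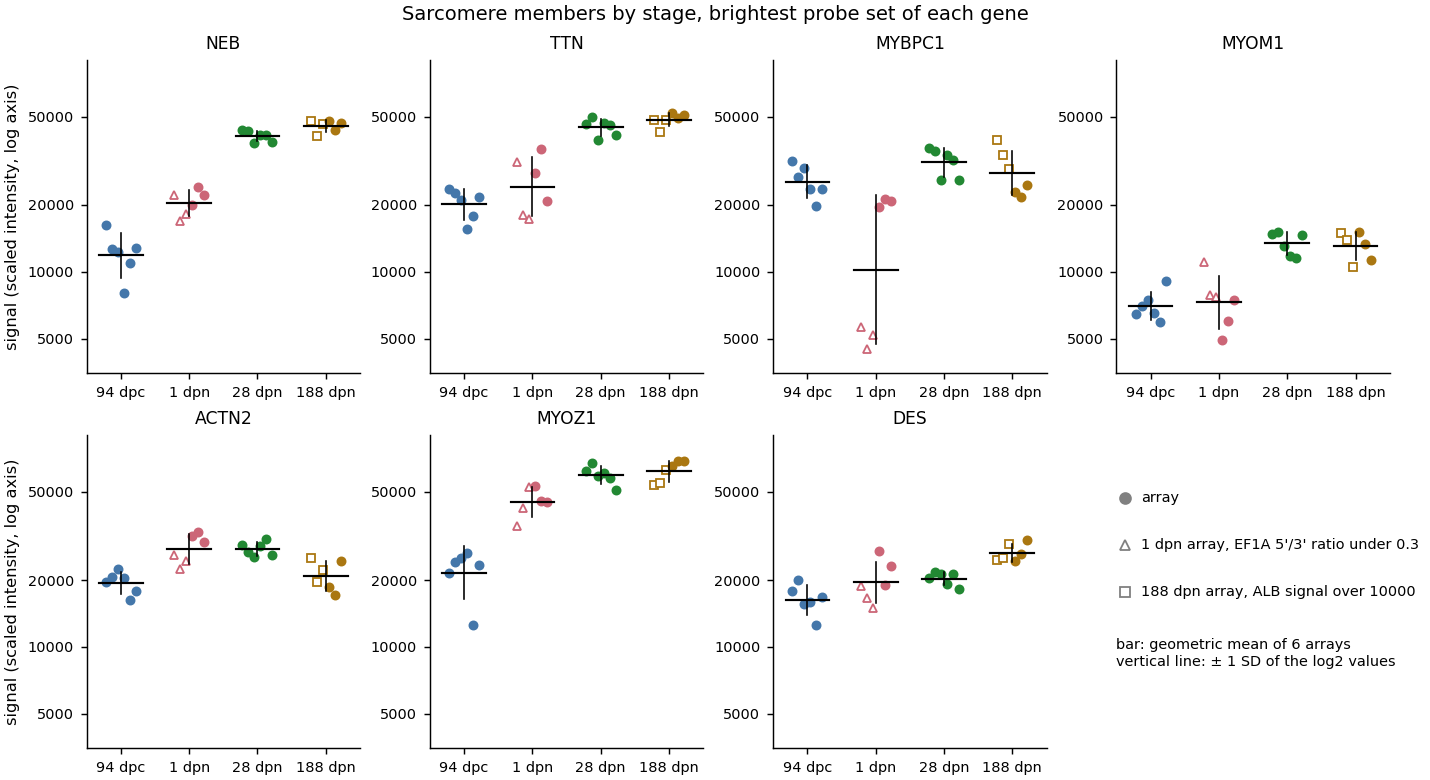
Signal of the brightest probe set of each gene in every array (log axis, scaled intensity) at the 4 stages, 6 animals each; bars are geometric means, vertical lines 1 SD of the log2 values, open triangles the 1 dpn arrays of low EF1A 5′/3′ ratio and open squares the 188 dpn arrays of high ALB. The geometric means of NEB, TTN and MYOZ1 rise to 28 dpn and differ little between 28 and 188 dpn. As deposited, the rise of TTN to 1 dpn and that of MYOZ1 from 1 to 28 dpn did not pass the test. The 3 open triangles of MYBPC1 at 1 dpn lie at 4487 to 5623, apart from the other 3 arrays.

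How far the step at birth goes depends on the scaling of the arrays. As deposited, the median difference over all probe sets from 94 dpc to 1 dpn was -0.15, and it was 0.03 after quantile normalization and 0.17 when each array was centred on its median log2 value. Among all called probe sets the share called higher was 32.8%, 47.7% and 59.2% under these scalings. For 188 dpn against 94 dpc that share was 31.3%, 48.9% and 60.8%, and for 188 against 28 dpn it was 28.2%, 42.0% and 62.9%. Relative to the deposited median of all probe sets, the difference at birth was 1.21 for MYOZ1, 0.94 for NEB, 0.66 for ACTN2, 0.42 for both TTN and DES, 0.21 for MYOM1 and -1.16 for MYBPC1. After quantile normalization the median difference of the 7 genes at birth was -0.34. MYOZ1 still rose, MYBPC1 still fell and NEB (0.14) no longer passed. The sign changed for the other 4: TTN (-0.34), MYOM1 (-0.36), ACTN2 (-0.11) and DES (-0.37), of which DES alone was then called. With centring TTN (0.59) and DES (0.59) were both called higher at birth, and the calls of the remaining genes were as deposited. DES was thus called in opposite directions under these 2 scalings.

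**Figure D2:**
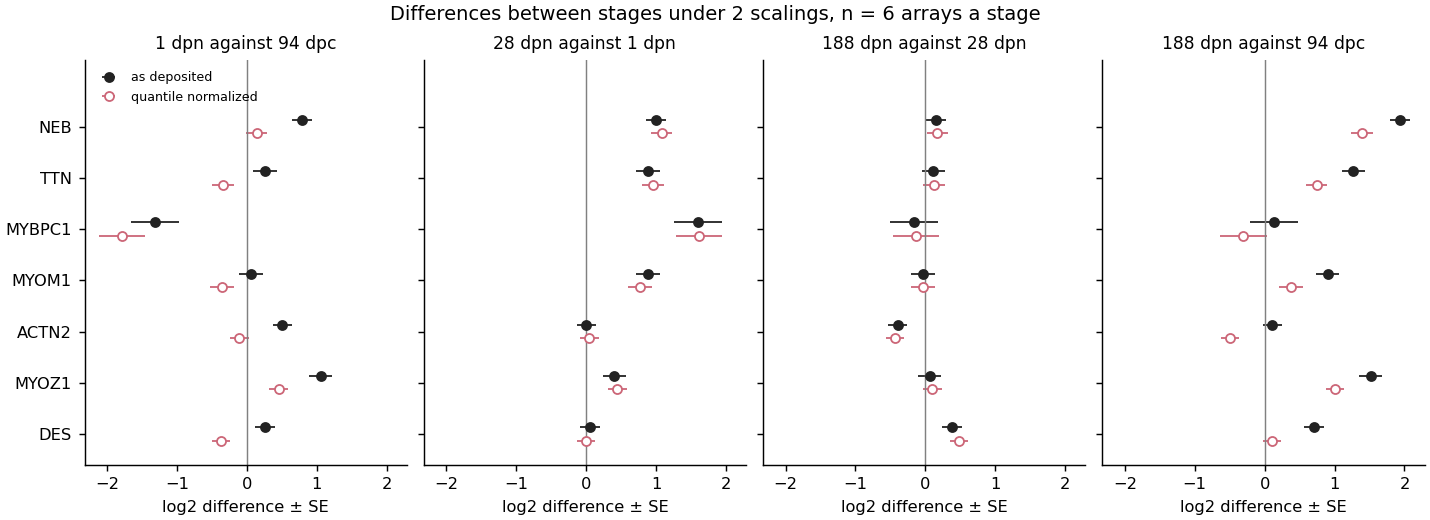
Log2 difference ± SE of each gene's brightest probe set between stages, as deposited (filled) and after quantile normalization (open). The 2 scalings lie close together for 28 against 1 dpn and for 188 against 28 dpn, and apart for the comparisons with 94 dpc, where ACTN2 goes from 0.50 to -0.11 at 1 dpn.

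NEB encodes nebulin, the giant protein along the thin filament. The signal at 94 dpc ran from 8015 over a median of 12434 to 16292. It ran from 16973 over 21038 to 24026 at 1 dpn and from 38070 over 41276 to 43341 at 28 dpn. At 188 dpn it lay between 41023 and 47740, with a median of 46620. Fetal, newborn and 28 dpn animals formed 3 separate ranges, and the ranges of 28 and 188 dpn overlapped. NEB rose 1.72-fold at birth (log2 difference 0.78 ± 0.14 SE, limma adjusted p = 2.23e-04) and 2.00-fold to 28 dpn (1.00 ± 0.14, limma adjusted p = 3.67e-05). The difference between 28 and 188 dpn was 0.15 ± 0.14 and did not pass the test. Over the whole span the signal rose 3.83-fold (1.94 ± 0.14, limma adjusted p = 4.05e-10), the widest difference of the 7 genes. After quantile normalization the step at birth was 0.14 and was not called, while the later step was 1.08.

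TTN encodes titin, the elastic link from Z-disc to M-band and a scaffold for signalling proteins. Its brighter probe set ran from 15504 over a median of 21401 to 23540 at 94 dpc and from 17279 over 24273 to 35816 at 1 dpn. The 2 ranges overlapped, and the difference of 0.26 ± 0.17 did not pass the test. With centring this difference was 0.59 and was called, and after quantile normalization it was -0.34 and was not. The signal then ran from 39352 over 46002 to 49939 at 28 dpn, above every 1 dpn array, a rise of 0.89 ± 0.17 (1.85-fold, limma adjusted p = 6.74e-04). At 188 dpn it lay between 42770 and 52177 with a median of 48868, a further difference of 0.12 ± 0.17 that did not pass. From 94 dpc to 188 dpn TTN rose 2.41-fold (1.27 ± 0.17, limma adjusted p = 2.08e-06), and 0.74 after quantile normalization.

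The dimmer TTN probe set rose in the step at birth. It ran from 4348 over a median of 5535 to 8687 at 94 dpc and from 11848 over 17665 to 24149 at 1 dpn, with no overlap. This was a difference of 1.57 ± 0.20 (2.97-fold, limma adjusted p = 4.42e-06), and 1.12 after quantile normalization. It then ran from 9468 to 15947 at 28 dpn and from 14759 to 21169 at 188 dpn, and neither later step passed the test. With centring the difference from 28 to 188 dpn was 0.71 and was called. Both TTN probe sets were thus higher at 188 dpn than at 94 dpc, by 1.27 and 1.70, but by different routes. Within an array the ratio of the dimmer to the brighter TTN probe set rose by 1.31 at birth and fell by 1.21 to 28 dpn. Each change had an exact permutation p of 0.00216, two-sided and the smallest that 6 against 6 arrays allow, and an adjusted p of 0.00433 over 8 such comparisons. Without the 1 dpn arrays of low 5′ signal the changes were 0.93 and -0.83, each with an exact permutation p of 0.0119, the smallest for 3 against 6. The files do not state which transcript parts the probe sets cover.

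**Figure D3:**
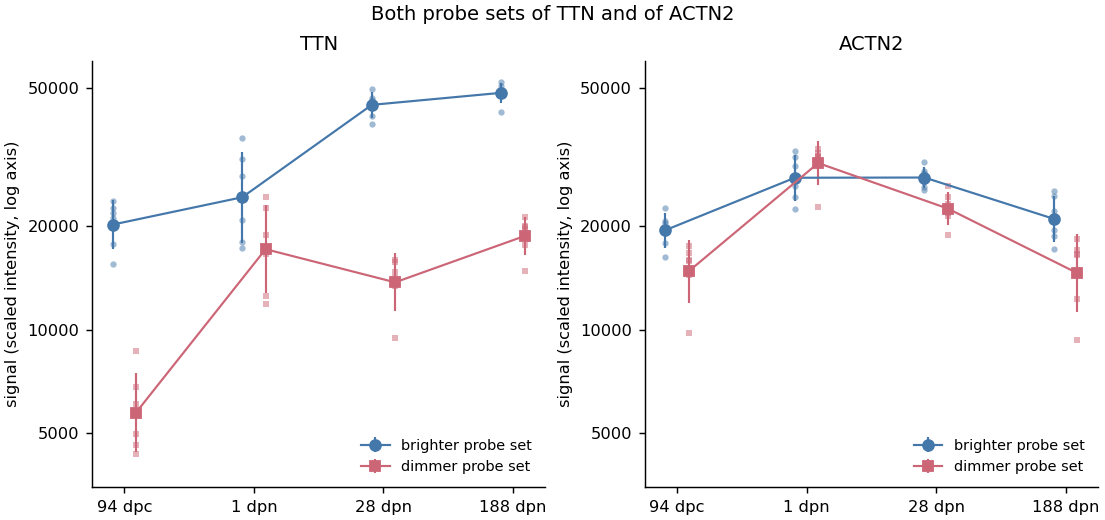
Signal of both probe sets of TTN and of ACTN2 (log axis, scaled intensity) by stage; small points are arrays, large points geometric means of 6 arrays and lines 1 SD of the log2 values. The brighter TTN probe set rises between 1 and 28 dpn and the dimmer between 94 dpc and 1 dpn, while for ACTN2 the dimmer probe set has its highest mean at 1 dpn.

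The ratio of TTN to NEB within an array does not depend on the scaling factor of the array. With the brighter TTN probe set this ratio fell by 0.52 on the log2 scale at birth (exact permutation p = 0.00433, two-sided, adjusted p = 0.00866 over 4 comparisons). It fell by 0.67 from 94 dpc to 188 dpn (exact permutation p = 0.00216, adjusted p = 0.00866). The mean log2 ratio was 0.76 ± 0.14 (SD, n = 6) at 94 dpc and 0.10 ± 0.06 (SD, n = 6) at 188 dpn. Changes of -0.11 from 1 to 28 dpn and of -0.04 from 28 to 188 dpn did not pass the test. With the mean of both TTN probe sets the change at birth was 0.13, of the opposite sign, so the ratio follows the TTN probe set chosen.

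MYBPC1 encodes the slow-type myosin-binding protein C, which binds the thick filament and tunes the cycling of cross-bridges. It had the widest spread of the 7 genes at 1 dpn, with an SD of 1.11 on the log2 scale against a median SD of 0.31 for the 7 genes. The 1 dpn values were 5623, 4487 and 5169 in animals 1 to 3 and 19634, 21358 and 20898 in animals 4 to 6. Those 2 sets of animals are the ones with low and with higher EF1A 5′/3′ ratios. At 94 dpc the signal ran from 19699 over a median of 25155 to 31467, so animals 4 to 6 at 1 dpn lay inside or just under the lower part of the fetal range. Over all 6 animals MYBPC1 fell by 1.31 ± 0.34 at birth (limma adjusted p = 0.00538) and rose by 1.61 ± 0.34 to 28 dpn (limma adjusted p = 0.00187). Without the 3 arrays of low 5′ signal the differences were -0.30 and 0.59, and neither passed the test.

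At 28 dpn MYBPC1 ran from 25838 over a median of 32659 to 36236, and at 188 dpn from 21787 over 26787 to 39198. The ranges of these 2 stages and of 94 dpc overlapped. Differences of -0.16 ± 0.34 from 28 to 188 dpn and of 0.13 ± 0.34 from 94 dpc to 188 dpn did not pass the test. Among the 188 dpn animals, those of high ALB had the higher MYBPC1 signal, 29045 to 39198 against 21787 to 24529. The part of liver transcripts in this split was not tested.

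MYOM1 encodes myomesin 1, which bridges myosin filaments at the M-band and binds titin there. Its signal ran from 5929 over a median of 6771 to 9081 at 94 dpc and from 4934 over 7578 to 11058 at 1 dpn. It ran from 11559 over 13861 to 15129 at 28 dpn and from 10465 over 13613 to 15083 at 188 dpn. The fetal and newborn ranges overlapped and both 28 and 188 dpn lay higher, although the lowest 188 dpn array was below the highest 1 dpn array. MYOM1 rose 1.84-fold between 1 and 28 dpn (0.88 ± 0.17, limma adjusted p = 7.64e-04). The difference at birth was 0.06 ± 0.17 and that from 28 to 188 dpn -0.04 ± 0.17, and neither passed. At 1 dpn the arrays of low 5′ signal had MYOM1 at 7666 to 11058 and the others at 4934 to 7491, the reverse of MYBPC1. The rise from 94 dpc to 188 dpn was 0.90 ± 0.17 (limma adjusted p = 1.61e-04), and 0.38, not called, after quantile normalization.

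**Figure D4:**
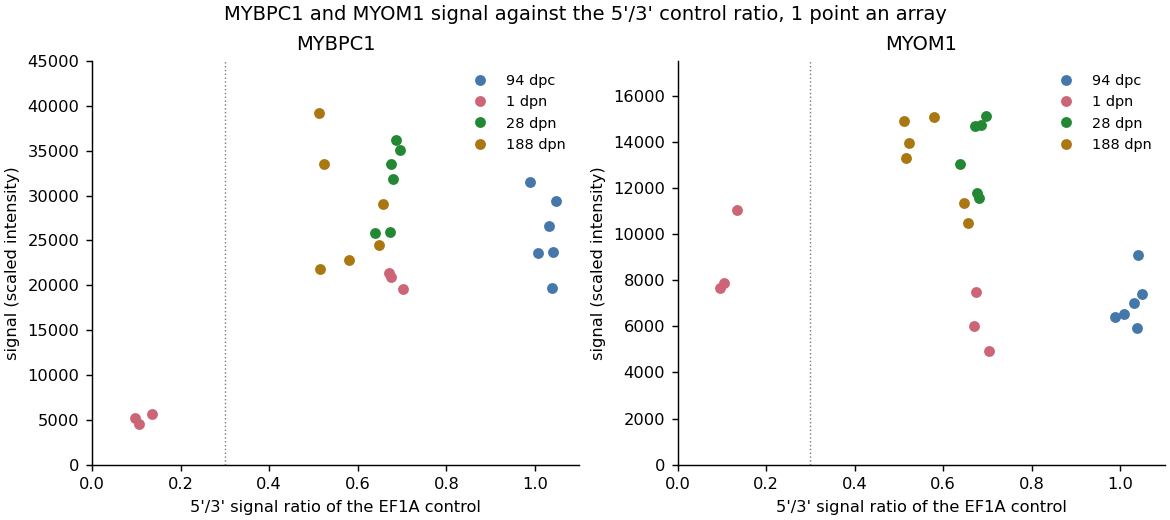
MYBPC1 and MYOM1 signal (scaled intensity) of each array against the 5′/3′ signal ratio of the EF1A control, coloured by stage, with a dotted line at 0.3. The 3 arrays of 1 dpn left of the line hold the 3 lowest MYBPC1 values of the 24 arrays and the higher MYOM1 values of their stage.

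ACTN2 encodes α-actinin-2, which cross-links the actin filaments of adjoining sarcomeres at the Z-disc. Its brighter probe set ran from 16184 over a median of 19997 to 22537 at 94 dpc. It ran from 22342 over 27885 to 32923 at 1 dpn and from 25362 over 27642 to 30582 at 28 dpn, and was back at 17083 to 25223, with a median of 20797, at 188 dpn. The rise at birth was 1.42-fold (0.50 ± 0.14, limma adjusted p = 0.00658), and the lowest newborn array touched the fetal range. No difference was seen from 1 to 28 dpn (0.00 ± 0.14). The 188 dpn arrays lay below all 28 dpn arrays, but the difference of -0.40 ± 0.14 missed the threshold (limma adjusted p = 0.0517). Against 1 dpn, 188 dpn was lower by the same amount and passed (-0.40 ± 0.14, limma adjusted p = 0.0262). The whole span gave 0.11 ± 0.14. After quantile normalization the difference at birth was -0.11 and that over the whole span -0.50, so that the fetal mean was then the highest of the 4 stages.

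The dimmer ACTN2 probe set had its highest mean at 1 dpn. It ran from 9807 over a median of 15853 to 17520 at 94 dpc, from 22695 over 31800 to 33407 at 1 dpn, from 18850 over 22454 to 26049 at 28 dpn and from 9319 over 16509 to 18245 at 188 dpn. The newborn arrays lay above all fetal arrays (1.04 ± 0.18, limma adjusted p = 9.82e-05). The difference from 1 to 28 dpn was -0.44 ± 0.18 and did not pass the test (limma adjusted p = 0.0814). The 188 dpn arrays lay below all 28 dpn arrays (-0.62 ± 0.18, limma adjusted p = 0.0187). After quantile normalization the step at birth was 0.33 and not called, and with centring the difference from 28 to 188 dpn was -0.35 and not called. The ratio of the dimmer to the brighter ACTN2 probe set rose by 0.54 at birth and fell by 0.44 to 28 dpn, each with an exact permutation p of 0.00216 and an adjusted p of 0.00433. Both ACTN2 probe sets had a lower signal at 188 dpn than at 28 dpn and, as deposited, no called difference between 94 dpc and 188 dpn. That last difference followed the scaling: it was -0.50 and -0.69 after quantile normalization and 0.64 and 0.52 after centring, for the brighter and the dimmer probe set, each of them called.

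MYOZ1 encodes myozenin 1, a Z-disc protein of fast fibres that binds α-actinin and the phosphatase calcineurin. Its signal ran from 12599 over a median of 23743 to 26589 at 94 dpc and from 35077 over 45129 to 52862 at 1 dpn, with no overlap. It ran from 50822 over 59847 to 67328 at 28 dpn and from 53753 over 64059 to 68794 at 188 dpn. MYOZ1 rose 2.08-fold at birth (1.06 ± 0.16, limma adjusted p = 3.77e-05), and this call also held after quantile normalization (0.46). The further difference to 28 dpn was 0.40 ± 0.16 and missed the threshold (limma adjusted p = 0.0867). It was called after quantile normalization (0.45), with the trend and robust options of limma, and without animal 5 of 94 dpc. The difference from 28 to 188 dpn was 0.06 ± 0.16. From 94 dpc to 188 dpn MYOZ1 rose 2.87-fold (1.52 ± 0.16, limma adjusted p = 1.04e-07). Within 188 dpn the animals of high ALB had 53753 to 62459 and the others 65659 to 68794.

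DES encodes desmin, the intermediate filament protein of muscle. The signal ran from 12558 over a median of 16318 to 20091 at 94 dpc, from 15018 over 18892 to 27043 at 1 dpn, from 18267 over 20818 to 21651 at 28 dpn and from 24375 over 25690 to 30172 at 188 dpn. The first 3 stages overlapped each other and the 188 dpn arrays lay above all arrays of 94 dpc and 28 dpn. No step between neighbouring stages passed the test, with differences of 0.26 ± 0.14, 0.06 ± 0.14 and 0.39 ± 0.14. Without the newborn arrays of low 5′ signal, where DES was at 15018 to 18752, the first of these was 0.49 and was called. The sum of them did, a rise of 1.63-fold from 94 dpc to 188 dpn (0.70 ± 0.14, limma adjusted p = 4.02e-04). After quantile normalization this difference was 0.11 and not called, while the difference at birth turned to -0.37 and that from 28 to 188 dpn was 0.48, both called. With centring the difference at birth was 0.59 and that from 28 to 188 dpn 0.65, both called higher.

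As deposited and by the brightest probe set, the order of the stage means was the same for NEB, TTN, MYOZ1 and DES: 94 dpc lowest, then 1, 28 and 188 dpn. After quantile normalization 1 dpn lay below 94 dpc for TTN and DES, and the dimmer TTN probe set ran from 94 dpc over 28 and 1 dpn to 188 dpn as deposited. For NEB the stages of 28 and 188 dpn did not differ past the threshold, for TTN only 1 and 28 dpn did among neighbours, and for MYOZ1 only 94 dpc and 1 dpn. MYOM1 ran from 94 dpc over 1 and 188 dpn to 28 dpn, with a called step between 1 and 188 dpn alone. ACTN2 ran from 94 dpc over 188 and 1 dpn to 28 dpn, and MYBPC1 from 1 dpn over 94 dpc and 188 dpn to 28 dpn. The median SD of the 7 genes on the log2 scale was 0.23 at 94 dpc, 0.31 at 1 dpn, 0.13 at 28 dpn and 0.16 at 188 dpn. The 1 dpn value includes the arrays of low 5′ signal. From 94 dpc to 188 dpn the SD fell for NEB, TTN, MYOZ1 and DES and was 0.22 at both stages for MYOM1. It went from 0.17 to 0.22 for ACTN2 and from 0.25 to 0.33 for MYBPC1. All 9 probe sets above background stood high within their arrays, between the 96.4th and the 99.96th percentile of the tested probe sets.

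The genes most like each member over the 24 arrays were found by the root mean square difference of log2 values after each gene's mean was removed, among 5474 other genes above background. The nearest were VAPA and DNAJA2 for NEB (0.25 and 0.28), GPHN and MSRB3 for TTN (0.22 and 0.23) and RBM4 and BTF3 for MYBPC1 (0.37 and 0.38). They were RAB11A and PLEKHB2 for MYOM1 (0.27 and 0.28), FTH1 and TCP1 for ACTN2 (both 0.20), EIF1 and YBX3 for MYOZ1 (both 0.14) and SF3B5 and RPLP1 for DES (0.18 and 0.19). EIF1, for example, had stage means of 21284, 44844, 55463 and 56850, a course like that of MYOZ1. Among the 7 genes themselves NEB and TTN were closest at 0.31, and MYBPC1 was 0.76 from TTN, its nearest. These distances are a description over arrays that share their scaling, depth of signal and stages.

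Other proteins of the Z-disc rose with age. Of 25 listed partners 15 were measured, and from 94 dpc to 188 dpn 10 rose and 1 fell, with a median difference of 1.24. Over all probe sets 12.5% were called higher and 27.4% lower in that comparison. ANKRD1, a stress-responsive ankyrin repeat protein, went from 828 to 6909 (3.06), PDLIM3, an α-actinin-binding LIM protein, from 4496 to 35219 (2.97) and XIRP2, an actin-binding Xin repeat protein, from 2620 to 16845 (2.68). PDLIM7 fell from 162 to 23.0, which is under background. At birth 5 rose and 0 fell, also at an unadjusted p, among them LMCD1 (1.95), TCAP (1.17), the titin cap of the Z-disc, MYOT (1.11), the actin-bundling myotilin, and FHL1 (0.96), the brightest of the list. Of all probe sets 10.1% were called higher and 20.8% lower at birth. Quantile normalization left 2 called higher at birth, with TCAP (0.48) and MYOT (0.57) among those lost, and 10 over the whole span. Between 1 and 28 dpn XIRP2 (2.15), CAPZA2 (1.55) and CAPZB (0.64), the latter both subunits of the capping protein at the barbed ends of thin filaments, rose and LMCD1 fell by 1.23. In that interval 26.7% of the list were called, against 20.7% of all probe sets. Without the 3 newborn arrays of low 5′ signal the median of the list for that interval was -0.16 in place of 0.38. From 28 to 188 dpn ANKRD1 (3.06), PDLIM3 (1.68) and XIRP1 (1.47) rose and CAPZB fell by 0.60. There 26.7% of the list were called, against 14.6% of all probe sets. Without the arrays of high ALB, 1 gene rose in that interval and 8 over the whole span. ANKRD1 was then 2.05 higher in either comparison and XIRP1 1.22 higher than at 28 dpn, none of them called.

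**Figure D5:**
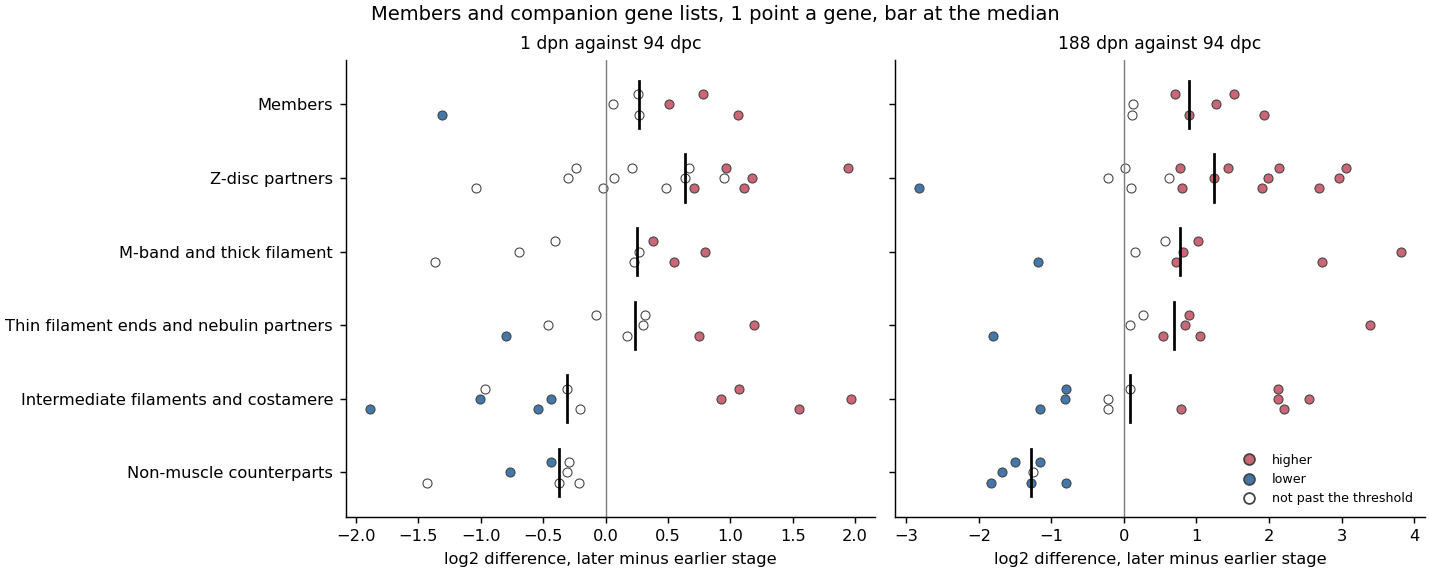
Log2 differences of the 7 genes and of the measured genes of 5 companion lists, 1 point a gene, filled red when called higher, blue when called lower and open when not called; bars are medians. From 94 dpc to 188 dpn the medians of the 7 genes and of the Z-disc, M-band and thin filament lists lie between 0.69 and 1.24, and that of the non-muscle counterparts at -1.28.

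Of 14 listed M-band and thick filament partners 8 were measured, and 5 rose and 1 fell from 94 dpc to 188 dpn (median 0.77). Over all probe sets 12.5% were called higher and 27.4% lower in that comparison. CMYA5, a large M-band-side and costamere protein also called myospryn, went from 1317 to 18510 (3.81), of which 2.81 came between 1 and 28 dpn. SMYD2, a lysine methyltransferase that binds titin complexes, rose by 2.73, and MYOM2, the M-band relative of MYOM1, by 1.02. TRIM55, a titin-associated ubiquitin ligase, fell by 1.19. CKM, the muscle creatine kinase and the brightest of the list, rose by 0.79 at birth, and by 0.12, not called, after quantile normalization. Between 1 and 28 dpn MYOM2 rose by 1.83 and, without the low 5′ arrays, by 1.04. Quantile normalization left 2 genes called higher over the whole span, with MYOM2 (0.49) no longer called, and turned the median at birth from 0.25 to -0.04.

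Of 12 listed thin filament end proteins and nebulin partners 8 were measured. TMOD4, the skeletal muscle tropomodulin that caps pointed ends, went from 3250 to 33970 (3.39) between 94 dpc and 188 dpn, with 1.19 at birth and 1.74 to 28 dpn. Over the whole span TMOD1 (1.05), LMOD3 (0.90), a leiomodin that nucleates actin, and TPM1 (0.84), the brightest of the list, were also higher. TPM3, the tropomyosin of slow fibres, fell by 0.80 at birth and by 1.81 over the whole span. In all 5 rose and 1 fell, where 12.5% of all probe sets were called higher and 27.4% lower. Quantile normalization left 2 and 2, with LMOD3 (0.47) and TPM1 (0.19) not called, and leaving out the arrays of high ALB left 3 and 1, with LMOD3 (0.84) not called. At birth 2 rose and 1 fell, where 10.1% of all probe sets were called higher and 20.8% lower. These counts followed the scaling: 1 rose and 3 fell after quantile normalization, and 4 rose and 0 fell with centring. The median of the list at birth changed from 0.24 to -0.30 with quantile normalization.

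Of 19 listed intermediate filament and costamere genes 11 were measured, and they moved both ways. From 94 dpc to 188 dpn 5 rose and 3 fell, with a median of 0.08. In that comparison 12.5% of all probe sets were called higher and 27.4% lower. The chaperones that act on desmin and filamin rose: HSPB8 (2.55), BAG3 (2.13) and CRYAB (2.12), the last of them αB-crystallin. SYNM, the synemin partner of desmin, fell by 1.89 at birth, rose by 2.61 to 28 dpn and rose by 1.48 to 188 dpn. Without the low 5′ arrays its first 2 changes were -1.07 and 1.79, both still called. VIM, the intermediate filament of mesenchymal and immature muscle cells and the brightest of the list, fell by 1.16 over the whole span. Without the arrays of high ALB 4 rose and 3 fell over that span, with KRT8 at 0.12, not called, in place of 0.79. At birth 4 rose and 4 fell, where 10.1% of all probe sets were called higher and 20.8% lower. Without the low 5′ arrays 3 rose and 3 fell at birth.

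Non-muscle counterparts of these proteins fell with age. Of 9 listed 7 were measured, VIM and TLN1 being shared with the list before. From 94 dpc to 188 dpn 6 fell and none rose, also at an unadjusted p, with a median of -1.28, and 5 to 7 fell under both other scalings and without the arrays of high ALB. As deposited, 27.4% of all probe sets were called lower and 12.5% higher in that comparison. LIMA1 fell by 1.84, FLNA, the non-muscle filamin, by 1.69 and ACTN1, the non-muscle relative of ACTN2, by 1.28. MYH9, a non-muscle myosin heavy chain, fell from 4719 to 1673. Markers of matrix-producing cells were lower with age too: 6 of 7 were measured, and their summed signal was 51424 to 59816 at 94 dpc and 12709 to 20448 at 188 dpn. Myoblast markers, 3 of 6 measured, summed to 2520 to 3819 and to 328 to 650. The part of cell composition in these differences was not tested.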

How the data were processed

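Signals of 24118 probe sets on 24 arrays were deposited by the authors as linear scaled intensity from GCOS 1.1.1, per the submitters' processing notes. The mean of each array without 2% of probe sets at either end was 498 to 499, and how probes were summarised and scaled is not given in the sources used here. The 183 control probe sets, reporter controls included, were left out, which kept 23935 without a filter. Values were taken as log2 with no constant added. Gene symbols come from the platform annotation: 10069 tested probe sets had 1 symbol, 198 several and 13668 none.

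Stages were compared with limma 3.58.1 in R 4.3.3 (lmFit and eBayes, all 24 arrays, 4 stage means, 20 residual degrees of freedom). The tests were two-sided. P-values were adjusted per comparison across the 23935 probe sets by Benjamini-Hochberg and called at 0.05, after the code was tested on simulated data. A gene was counted by its probe set of the highest mean log2 value. Ratios within an array were compared with exact permutation tests. Background was the 95th percentile of 17 Tag control probe sets, 74.7; 39.2% of the tested ones averaged less. The number of arrays limits the precision. Companion genes were named by rule: of each list up to 4 called genes of largest difference per comparison and its brightest gene. KRT8 is named besides, as its call depended on the arrays of high ALB. The members, lists, arrays set aside and tests were chosen with earlier results of these data known. Alternatives were other scalings, added constants of 16 and 64, a filter on the dimmest 30%, the mean of a gene's probe sets, fits of 2 stages, the trend and robust options, and leaving out arrays.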

Additional observations from a re-analysis of the deposited data

Results flagged for a closer look

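In 40 groups of 6 values (10 probe sets at 4 stages) a value was picked out when its gap to the nearest other value passed Dixon's 95% critical value for 6 samples, as a share of the range of the group on the log2 scale; chance picks out about 1 group in 20. It met 5 values, each the lowest of its group.

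At 94 dpc animal 5 had a MYOZ1 signal of 12599, with the next at 21509, and a signal of 9807 on the dimmer ACTN2 probe set, with the next at 14365. At 1 dpn animal 2 had 22695 on the dimmer ACTN2 probe set, with the next at 31603. At 28 dpn animal 5 had 9468 on the dimmer TTN probe set, with the next at 13419. At 188 dpn animal 2 had 42770 on the brighter TTN probe set, with the next at 48432. Leaving out animal 5 of 94 dpc gave a MYOZ1 difference of 0.90 at birth in place of 1.06.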

How the results depend on the processing

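Over 28 differences of the 7 genes, 952 alternative values were computed: 890 kept direction and side of the threshold, 7 no longer passed, 28 newly passed and 27 changed sign. In 3 of the 27 the difference was called as deposited or under the alternative, each with quantile normalization: ACTN2 at birth (-0.11), DES at birth (-0.37) and ACTN2 over 94 dpc to 188 dpn (-0.50). The other 24 were called in neither. With quantile normalization these were TTN (-0.34) and MYOM1 (-0.36) at birth and MYBPC1 from 94 dpc to 188 dpn (-0.30). With centring they were ACTN2 (-0.057) and DES (-0.0041) from 1 to 28 dpn, and MYBPC1 (0.11) and MYOM1 (0.23) from 28 to 188 dpn. With the mean of probe sets they were DES at birth (-0.21), ACTN2 from 1 to 28 dpn (-0.22) and DES from 28 to 188 dpn (-0.074). Without the low 5′ arrays they were MYOM1 at birth (-0.21) and ACTN2 (-0.19) and DES (-0.17) from 1 to 28 dpn, and without the high ALB arrays MYBPC1 from 94 dpc to 188 dpn (-0.14). Leaving out 1 animal gave -0.064 to 0.17 for MYOM1 at birth, -0.058 to 0.054 for ACTN2 and -0.021 to 0.15 for DES from 1 to 28 dpn, and -0.082 to 0.025 for MYOM1 from 28 to 188 dpn. Quantile normalization left 1 gene higher and 2 lower at birth, and 3 higher and 1 lower from 94 dpc to 188 dpn. Centring on the median gave 5 genes higher at birth (NEB, TTN, ACTN2, MYOZ1 and DES). Without the 1 dpn arrays of low 5′ signal, 0 genes were lower at birth. From 1 to 28 dpn MYOZ1 newly passed with quantile normalization (0.45), with trend and robust options and without animal 5 of 94 dpc.

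From 28 to 188 dpn, where no gene was called, 1 was called higher (DES) with quantile normalization, without the dimmest 30%, in the fit of 2 stages, with trend and robust options and without the low 5′ arrays, and 2 (NEB and DES) with centring. In the same interval 1 was called lower (ACTN2) with quantile normalization, with 64 added, without the dimmest 30%, with the mean of probe sets, in the fit of 2 stages, with trend and robust options and without the low 5′ arrays. Leaving out 1 animal gave 0 to 1 genes lower there: ACTN2 passed without animal 5 of 94 dpc, animal 2, 4 or 5 of 1 dpn, or animal 1 or 6 of 188 dpn. Its adjusted p ranged from 0.0176 to 0.639 over 34 alternatives. The adjusted p at birth ranged from 2.85e-06 to 0.538 for NEB, from 1.36e-04 to 0.602 for ACTN2 and from 2.90e-04 to 0.292 for MYBPC1.

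With the mean of probe sets the TTN to NEB ratio changed by 0.13 at birth, by -0.72 from 1 to 28 dpn and by 0.13 from 28 to 188 dpn, of which the second passed the exact permutation test, and TTN itself rose by 0.92 at birth and differed by 0.29, not called, after it. Without the high ALB arrays the ratio by the brighter TTN probe set changed by 0.011 from 28 to 188 dpn, against -0.035 over all arrays. With the mean of both DES probe sets, the second of which is under background, DES changed by 0.58 over the whole span and was not called. Without a single animal no called difference of the 7 genes moved by over 1.5 times. Of 1360 companion counts 98 moved by over 1.5 times. Changes in the ratios of ACTN3 to ACTN2 and of MYBPC2 to MYBPC1 were planned and not run, as ACTN3 and MYBPC2 matched no probe set, so ratios were adjusted over 4 comparisons in place of 12. No paired analysis was possible because the stages hold different animals and the labels give no shared replicate numbers. The causes of these shifts were not tested.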
